A study of Mus musculus with 8 samples.

Results

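The alpha-actinin family comprises 4 genes in the mouse, Actn1, Actn2, Actn3 and Actn4, and all 4 were found by symbol among the 24516 genes of the count table. Alpha-actinins are antiparallel dimers of the spectrin superfamily that cross-link actin filaments through paired calponin homology domains at the amino terminus. Alpha-actinin 2 anchors thin filaments of opposite polarity in the Z-disc of heart and skeletal muscle, and binds partners such as titin and PDZ-LIM proteins there. Alpha-actinin 3 is found in the Z-disc of fast skeletal fibres, whereas alpha-actinins 1 and 4 work in stress fibres, focal adhesions and cell junctions of many cell types and are calcium sensitive.

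The hearts came from mice of 1 litter at postnatal day 40, profiled by bulk RNA sequencing. The mice were homozygous (n = 3) or heterozygous (n = 3) for a CRISPR/Cas9 deletion of a conserved Actn2 enhancer, or wild type (n = 2) and without the deletion. The sources used here name no strain, sex or coordinates for the deletion. They say of the replicates only that the hearts shared a litter, so p-values measure the spread between these samples. According to the series' text the raw reads of both wild-type libraries were lost, and their counts remain.

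Actn2 lies on chromosome 13 (12269426 to 12340760, minus strand, mm10, ENSMUSG00000052374.16), Actn1 on chromosome 12 (80167547 to 80260371, minus strand, ENSMUSG00000015143.15), Actn4 on chromosome 7 (28893248 to 28962340, minus strand, ENSMUSG00000054808.15) and Actn3 on chromosome 19 (4861216 to 4877909, minus strand, ENSMUSG00000006457.4). The 4 coding sequences are of nearly one length, 2682 bases for Actn2, 2676 for Actn1, 2796 for Actn4 and 2700 for Actn3, without the stop codon. In pairwise alignments of the coding sequences, Actn1 and Actn4 were the closest pair with 80.5% identical aligned bases, Actn2 shared 77.3% with Actn1, 77.0% with Actn4 and 75.7% with Actn3, and Actn3 shared 76.4% with Actn1 and 75.2% with Actn4. Of 2633 windows of 50 bases in the Actn2 coding sequence 2 recurred exactly in a paralog, and 16 of 2627 did so for Actn1 and 16 of 2747 for Actn4. The rule for reads that map to several places is not given in the sources used here, so a small part of the paralogs' reads could be shared.

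The stretches just upstream of the outermost annotated start are shown for the 3 members with a RefSeq promoter entry (GRCm38.p6, minus strand), since the deleted enhancer is one of Actn2 and the paralogs start from promoters of their own. Actn2 is at chr13:12340761-12340982, Actn1 at chr12:80260421-80260613 and Actn4 at chr7:28962352-28962582. Capitals mark matches on either strand to an E-box (CANNTG), a GC box (GGGCGG) or an M-CAT element (CATTCC), and these matches did not overlap.
Actn2: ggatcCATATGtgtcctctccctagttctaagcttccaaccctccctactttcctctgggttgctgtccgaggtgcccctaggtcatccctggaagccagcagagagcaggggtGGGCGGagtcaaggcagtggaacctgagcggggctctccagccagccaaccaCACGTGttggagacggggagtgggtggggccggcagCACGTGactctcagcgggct
Actn1: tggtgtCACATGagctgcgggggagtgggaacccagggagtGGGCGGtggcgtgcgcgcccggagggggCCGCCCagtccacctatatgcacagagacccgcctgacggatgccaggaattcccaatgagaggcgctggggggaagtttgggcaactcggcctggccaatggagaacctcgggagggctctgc
Actn4: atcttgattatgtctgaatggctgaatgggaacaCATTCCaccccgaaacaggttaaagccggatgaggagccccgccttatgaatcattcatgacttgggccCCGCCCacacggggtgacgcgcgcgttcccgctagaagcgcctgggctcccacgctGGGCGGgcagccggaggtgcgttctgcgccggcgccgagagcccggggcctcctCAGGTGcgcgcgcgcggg

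The Actn2 stretch of 222 bases held 3 E-boxes and 1 GC box, and 62.2% and 28.8% of 27025 gene promoters held at least 1 of each over a window of the same length. The 2 E-boxes nearer to the start both read CACGTG, 84 to 79 and 48 to 43 bases upstream of the RefSeq start. The Actn1 stretch of 193 bases held 1 E-box and 2 GC boxes (57.8% and 23.4% of promoters over that length). The Actn4 stretch of 231 bases held 1 E-box, 2 GC boxes and 1 M-CAT element (63.5%, 30.1% and 11.8%). A search of the 3 stretches for the MEF2 box, the CArG box, TATAAA and TGATAA gave no match. Of the promoters over the Actn2 length, 2.67%, 1.22%, 10.5% and 7.49% held these. A match is a description of these letters only.

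The libraries held 22230090 to 55902737 counts. The cardiac identity of the samples was checked by markers: levels are given in CPM, a gene's count relative to its library's total after TMM scaling, and the 11 ventricular cardiomyocyte markers summed to 84104 to 96720 CPM in homozygous, 85602 to 87576 CPM in heterozygous and 92582 to 100611 CPM in wild-type hearts. Wild type 2 stood apart: on log2 CPM over all genes tested it correlated with the deletion libraries at 0.927 to 0.935, against 0.957 to 0.966 for wild type 1 and 0.969 to 0.982 between deletion libraries. The wild-type pair correlated at 0.952, so wild type 1 was closer to each deletion library than to wild type 2. For the alpha-actinins, their partners and the marker lists, results against wild type are also given without wild type 2. The lone remaining wild-type library is then assumed to vary like the deletion libraries.

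Actn2, the sarcomeric member and the one whose enhancer was deleted, had 2115, 1611 and 1791 CPM in homozygous 1 to 3, 1693, 1546 and 1638 CPM in heterozygous 1 to 3, and 2187 and 2703 CPM in wild type 1 and 2. Every deletion heart was below both wild-type hearts, although homozygous 1 came within the distance that separates the wild-type pair. The same held for 27.2% of genes tested in homozygous and 25.6% in heterozygous hearts. The heterozygous hearts were the lowest group and the most uniform, and the homozygous values overlapped with them. Group means were 1839 ± 256 CPM in homozygous, 1626 ± 74.4 CPM in heterozygous and 2445 ± 365 CPM in wild-type hearts (SD, n = 3, 3 and 2).

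**Figure D1:**
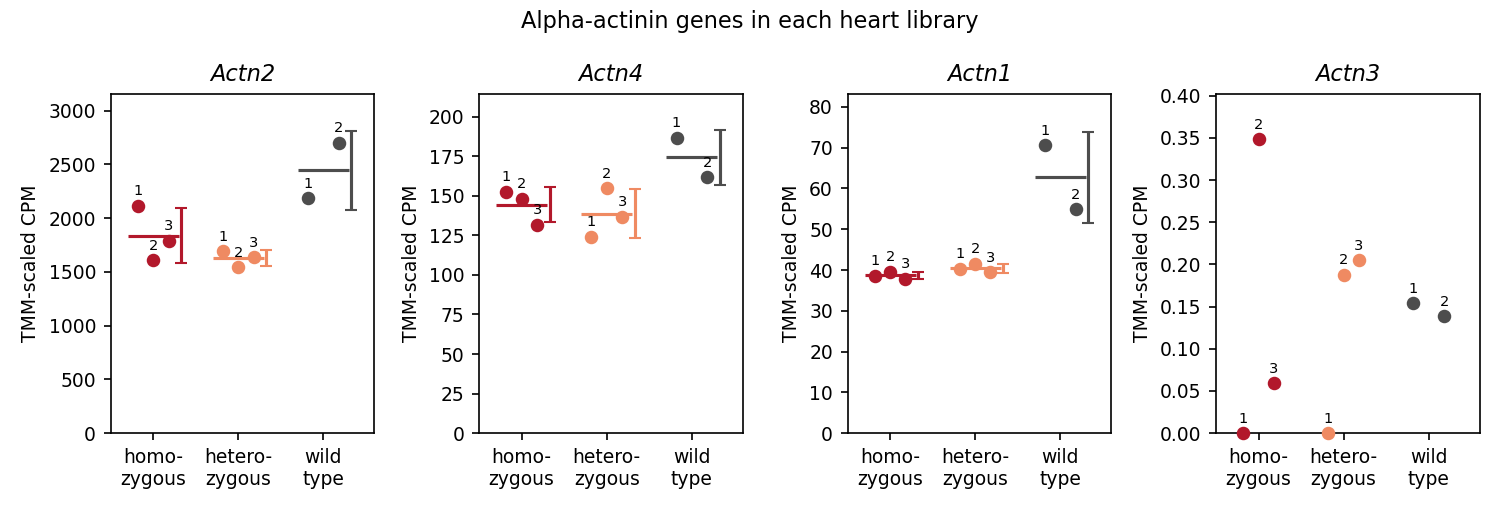
TMM-scaled CPM of each alpha-actinin gene (linear axes from 0) in homozygous, heterozygous and wild-type hearts; points are libraries with their number, lines are means and bars to the right are SD, which the Actn3 panel does not carry. Actn1 lies between 37.9 and 41.5 CPM in the 6 deletion hearts, below 54.9 and 70.6 CPM in wild type, and Actn3 is listed at 0 in 2 libraries.

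In the fit across all genes, Actn2 fell in heterozygous hearts to 0.665-fold of wild type (log2 fold change -0.59, 95% interval -0.94 to -0.24, edgeR quasi-likelihood test with Benjamini-Hochberg adjusted p = 0.0193). In homozygous hearts the ratio to wild type was 0.752 (log2 fold change -0.41, 95% interval -0.76 to -0.06), which did not pass after adjustment over all genes (adjusted p = 0.0771). The mean of both deletion genotypes was 0.707-fold of wild type (adjusted p = 0.0187), a call lost without wild type 2 (log2 fold change -0.31, adjusted p = 0.199), under a replicate block (adjusted p = 0.0559) and after a correction for gene length and GC content (adjusted p = 0.165). The background was high, with 27.7% of all genes past the threshold of 0.05 in homozygous, 28% in heterozygous and 33.7% in both deletion genotypes together. As lower, 12.4% of the 15075 genes tested passed in homozygous, 12.8% in heterozygous and 16.3% in both together. By size, 27.7% of all genes tested had a lower log2 fold change than Actn2 in homozygous and 19.1% in heterozygous hearts, and so did 21.4% and 14.1% of the 1870 genes with a mean of at least 100 CPM. In bulk tissue, fewer cells of a type and less RNA per cell cannot be told apart.

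The mean Actn2 level was not lower in homozygous than in heterozygous hearts. Homozygous against heterozygous hearts, Actn2 had a log2 fold change of 0.18 with a 95% interval of -0.14 to 0.49 (adjusted p = 0.9996), so that the data allow a homozygous level between 0.909-fold and 1.41-fold of the heterozygous one. In the order of levels, the lowest group (heterozygous) and the middle one (homozygous) did not differ beyond their spread. No gene passed in this comparison with edgeR's quasi-likelihood test, 411 had an unadjusted p under 0.05, and DESeq2 called 3.

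The Actn2 difference from wild type rested in part on wild type 2, the highest library. Without it the log2 fold changes were -0.22 for homozygous hearts and -0.40 for heterozygous ones (adjusted p = 0.436 and 0.128), and with wild type 1 left out instead they became -0.55 and -0.73 (adjusted p = 0.0200 and 0.00440). When trends with GC content and with the lengths of transcript and 3' UTR were removed in each library (the gene property correction), the values were -0.18 and -0.37 (adjusted p = 0.451 and 0.117). The heterozygous call was also lost without heterozygous 2 or 3 (adjusted p = 0.0725 and 0.0595), when homozygous hearts stayed out of the fit (adjusted p = 0.0536) and under a replicate block (adjusted p = 0.0546). The direction was lower in each of these fits.

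Set against other cardiomyocyte transcripts, Actn2 took a smaller part in the deletion hearts. Its CPM amounted to 2.19%, 1.92% and 2.06% of the ventricular marker sum in homozygous, 1.95%, 1.77% and 1.91% in heterozygous and 2.36% and 2.69% in wild-type hearts. The deletion genotypes did not overlap with wild type on this measure. In CPM, 27.2% of genes tested lay wholly below wild type in homozygous and 25.6% in heterozygous hearts. The marker sum of homozygous 1 lay between those of the wild-type pair. Its 11 genes moved in both directions, with 3 higher and 3 lower in homozygous and 3 higher and 4 lower in heterozygous hearts. Of all genes, 15.3% were higher and 12.4% lower in homozygous, and 15.2% higher and 12.8% lower in heterozygous hearts. The marker sum is therefore no fixed standard. Of its 2 most abundant genes, Atp2a2, which encodes the SERCA2 calcium pump, rose 2.19-fold in homozygous and 2.02-fold in heterozygous hearts, and Myh6, the alpha myosin heavy chain, stood at 0.787-fold and 0.765-fold, which did not pass (adjusted p = 0.121 and 0.0866). The lower calls among the ventricular markers depended on wild type 2. Myl2, for example, had 9128 CPM in wild type 1 and 19551 CPM in wild type 2. Atp2a2 had 9817 CPM in wild type 1, below the 15588 to 19336 CPM of homozygous and 14273 to 16907 CPM of heterozygous hearts.

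Several atrial markers were lower in the deletion hearts, and the sum of the list, which was mostly Nppa, overlapped between each deletion genotype and wild type. Homozygous 1 had an atrial sum of 147 CPM, of which Nppa was 102 CPM. Heterozygous 1 had 459 CPM, of which Nppa was 415 CPM, and wild type 1 had 377 CPM. The sum was 147 to 402 CPM in homozygous, 132 to 459 CPM in heterozygous and 377 to 642 CPM in wild-type hearts, with 5 of 8 tested lower and none higher in each genotype, and none of the 9 at 0 in all libraries. Against these 5 of 8, 12.4% and 12.8% of all genes were lower. Nppa, the natriuretic peptide gene that makes up most of the sum, did not pass (adjusted p = 0.411 and 0.623), and the list's median log2 fold change was -1.91 in homozygous and -1.87 in heterozygous hearts. The other genes that fell, apart from Stard10, are named after their values were seen. Myl7, the atrial myosin light chain, had 0.177 to 0.366 CPM in homozygous, 0.272 to 0.684 CPM in heterozygous and 6.59 and 14.2 CPM in wild-type hearts, and Sln, the calcium pump regulator sarcolipin, was at 0 in 5 of the 6 deletion libraries, against 2.93 and 5.27 CPM in wild-type hearts. Myl4 (log2 fold changes -3.19 and -3.01) and Dkk3 (-2.92 and -2.94) fell too. Wild type 1 alone was above every deletion heart for Myl7, Sln, Myl4 and Dkk3. Myl4 had 11.1 CPM there against at most 2.75 CPM in homozygous and 3.13 CPM in heterozygous hearts. Dkk3 had 24.1 CPM there against at most 4.84 and 4.29 CPM. Stard10 (edgeR adjusted p = 0.0238 and 0.0285 with all libraries) no longer passed without wild type 2. It had 21.9 CPM in wild type 1 and up to 20.6 CPM in heterozygous hearts. The part of atrial tissue in the Actn2 difference was not tested.

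Actn1, the non-muscle paralog that cross-links actin in stress fibres and focal adhesions, had 38.6, 39.6 and 37.9 CPM in homozygous hearts, 40.3, 41.5 and 39.4 CPM in heterozygous hearts and 70.6 and 54.9 CPM in wild-type hearts. The 6 deletion hearts formed one narrow band and both wild-type hearts lay above it, wild type 1 farther than wild type 2. Actn1 fell to 0.617-fold of wild type in homozygous (log2 fold change -0.70, SE 0.13, edgeR adjusted p = 0.00358) and to 0.644-fold in heterozygous hearts (-0.63, SE 0.13, adjusted p = 0.00517). Between the 2 deletion genotypes Actn1 was at -0.06, homozygous over heterozygous, with a 95% interval of -0.32 to 0.19 (adjusted p = 0.9996).

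Both Actn1 calls against wild type passed in each of the 17 alternative fits run, which covered scaling, filter, tool, replicate block, the gene property correction and each library left out. Without wild type 2 the log2 fold changes were -0.83 in homozygous and -0.78 in heterozygous hearts, and without wild type 1, where Actn1 was highest, they came to -0.50 and -0.44 (adjusted p = 0.00964 and 0.0193). The correction gave -0.64 and -0.55 (adjusted p = 0.00722 and 0.0143). Actn1 was highest in wild type 1 while Actn2 was highest in wild type 2, and leaving out either library moved their fold changes in opposite senses.

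**Figure D2:**
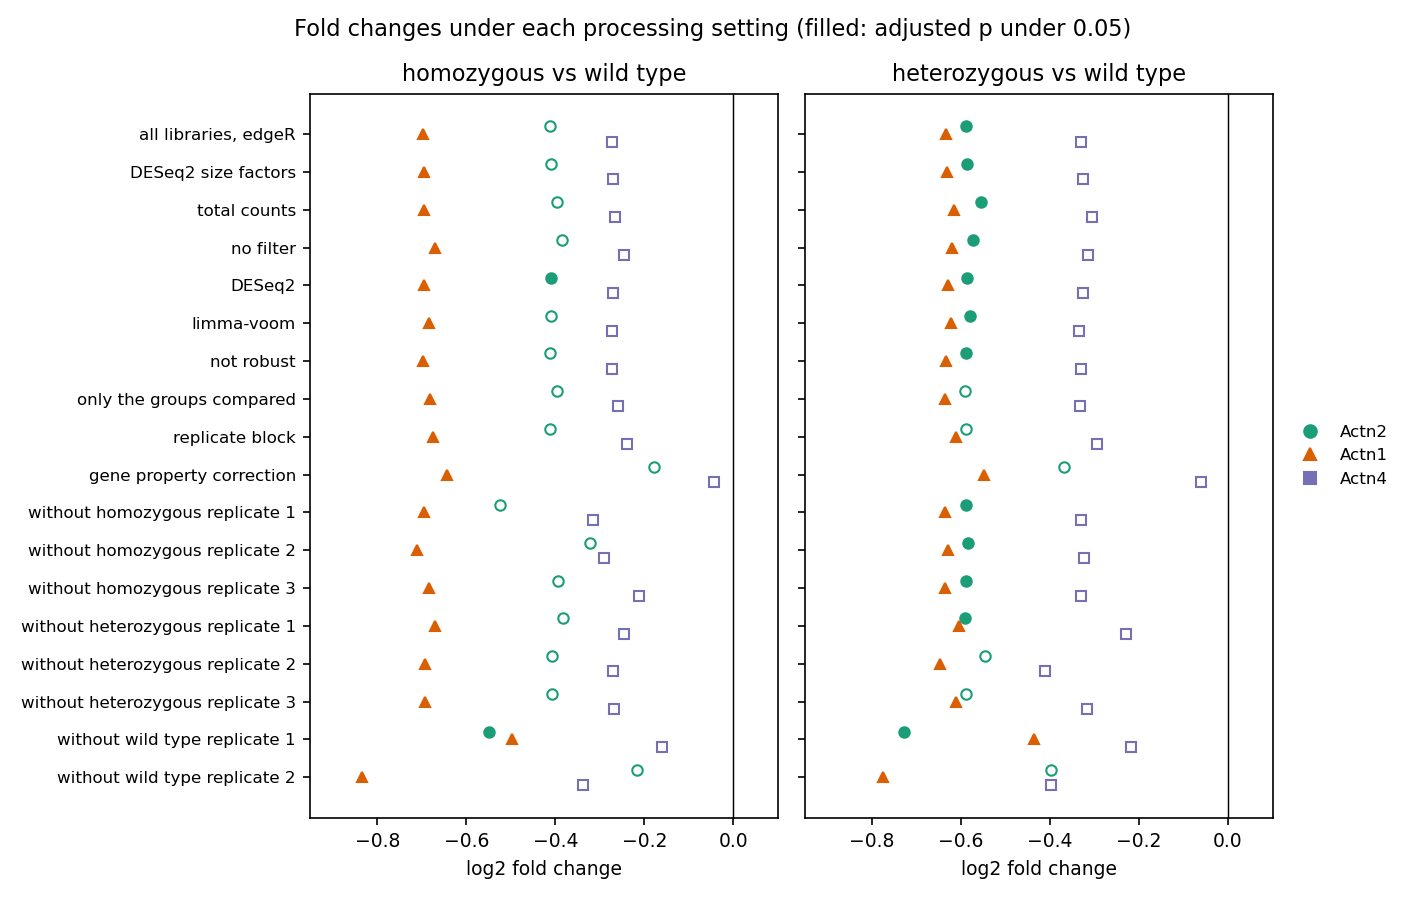
Log2 fold change against wild type (x axis) of Actn2, Actn1 and Actn4 under each processing setting (y axis), for homozygous hearts on the left and heterozygous hearts on the right; filled symbols have an adjusted p under 0.05. Actn1 is filled in every row, Actn2 is filled in some, and Actn4 in none.

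The fibroblast, endothelial and skeletal muscle marker sums lay below wild type in every deletion heart, as Actn1 did, while the other sums did not. The skeletal muscle sum is given with Actn3. The fibroblast markers, all 10 tested and none at 0 in all libraries, summed to 2478 to 3310 CPM in homozygous, 2982 to 3554 CPM in heterozygous and 4152 to 5048 CPM in wild-type hearts, with 2 of 10 lower in homozygous and 1 of 10 in heterozygous hearts and none higher. These counts are near the share of all genes called lower, 12.4% and 12.8%. The 11 endothelial markers, none at 0 in all libraries, summed to 1225 to 1542 CPM in homozygous, 1287 to 1422 CPM in heterozygous and 1840 to 1862 CPM in wild-type hearts, with 5 lower and none higher in homozygous and 4 lower and 1 higher in heterozygous hearts. Gsn, which encodes the actin-severing protein gelsolin and was the most abundant of the fibroblast list, and Eng, the endothelial TGF-beta co-receptor endoglin, fell in both genotypes, and the next most abundant of each list, Dcn and Cdh5, did not pass in either. The gap in the fibroblast sum rested largely on Gsn. Gsn had 978 to 1349 CPM in homozygous, 1052 to 1438 CPM in heterozygous and 2405 and 2492 CPM in wild-type hearts. Col3a1, of the same list, had 728 CPM in wild type 1 but 276 CPM in wild type 2. The latter was below the 328 to 569 CPM of homozygous and 459 to 550 CPM of heterozygous hearts. The sums of the 11 smooth muscle and pericyte markers overlapped between heterozygous and wild-type hearts, with 3613 to 3840 CPM in homozygous, 3370 to 4188 CPM in heterozygous and 4036 to 5054 CPM in wild-type hearts. Of these markers 1 rose and 3 fell in homozygous and 1 rose and 5 fell in heterozygous hearts, and Des and Rgs5, which make up most of the sum, did not pass in either. Des alone had 1672 to 3192 CPM over the libraries. Bulk counts do not show which cells it came from, so this sum is no measure of smooth muscle and pericytes alone. Of contractile smooth muscle genes, named after their values were seen, Cnn1 (log2 fold changes -3.51 in homozygous and -3.93 in heterozygous hearts), Tagln (-2.25 and -1.76) and Myh11 (-1.88 and -2.02) fell in both genotypes and Acta2 (-1.43) in heterozygous hearts. Abcc9, of the same list, went the other way, with 425 to 469 CPM in homozygous, 320 to 430 CPM in heterozygous and 188 and 236 CPM in wild-type hearts. The 10 macrophage and leukocyte markers summed to 378 to 382 CPM in homozygous, 359 to 515 CPM in heterozygous and 415 to 453 CPM in wild-type hearts, with 1 higher and 2 lower in homozygous and 1 higher and 1 lower in heterozygous hearts. C1qa, a complement gene of macrophages, fell in both, and Lyz2 did not pass. Adgre1, named after its values were seen, went the other way, with 15.8 to 16.2 CPM in homozygous, 14.0 to 20.0 CPM in heterozygous and 7.06 and 9.39 CPM in wild-type hearts. No gene of either list was at 0 in all libraries.

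The counts of markers that fell without wild type 2 were 1 of 10 in both genotypes for fibroblasts, 3 and 2 of 11 for endothelium, 1 and 2 of 11 for smooth muscle and pericytes and 1 of 10 in both for leukocytes, while 3.58% of all genes fell in homozygous and 4.62% in heterozygous hearts. Gsn, Eng and C1qa still passed in both genotypes. Myh11 still passed in both (adjusted p = 0.0494 and 0.0309), Cnn1 in heterozygous hearts (adjusted p = 0.056 and 0.0304), and Tagln in neither (0.0719 and 0.196).

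As a share of the fibroblast sum, Actn1 was 1.22%, 1.20% and 1.53% in homozygous, 1.13%, 1.36% and 1.32% in heterozygous and 1.40% and 1.32% in wild-type hearts, and the genotypes overlapped. As a share of the endothelial sum it was 2.50% to 3.09% in homozygous, 2.84% to 3.06% in heterozygous and 2.98% to 3.79% in wild-type hearts, which overlapped too. The part of these markers in the Actn1 difference was not tested.

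Actn4, the other non-muscle paralog, which moves between the cytoskeleton and the nucleus, had 152.6, 148.2 and 131.7 CPM in homozygous, 124, 154.8 and 136.7 CPM in heterozygous and 186.5 and 161.8 CPM in wild-type hearts. No deletion heart reached the lower wild-type heart, yet the gap of heterozygous 2 to wild type 2 was small against the spread within either genotype. The log2 fold changes of -0.27 in homozygous (95% interval -0.57 to 0.03, adjusted p = 0.158) and -0.33 in heterozygous hearts (95% interval -0.63 to -0.03, adjusted p = 0.0922) did not pass. They did not pass in any of the 17 alternative fits either, and the gene property correction put them at -0.04 and -0.06. Across the 3 tested members, the deletion ranges lay below the wild-type range for 3 of 3 in each genotype, as they did for 27.2% of genes tested in homozygous and 25.6% in heterozygous hearts.

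Actn4 overlaps 316 exonic bases of Capn12, a calpain protease gene on the opposite strand, and whether strand was used in counting is not given in the sources used here. Capn12 had 29 to 123 counts per library and Actn4 had 2733 to 8504. Actn1 overlaps the antisense transcripts Gm47766 and Gm47767 in 363 and 88 exonic bases, and these were not analysed here.

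**Figure D3:**
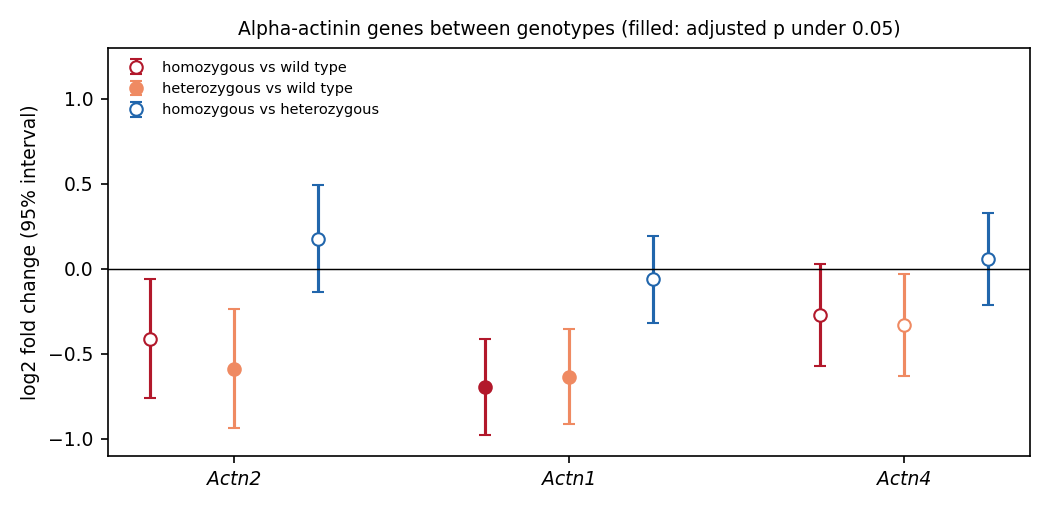
Log2 fold change (y axis) of Actn2, Actn1 and Actn4 between genotypes with the 95% interval of the edgeR fit; filled points have an adjusted p under 0.05. Homozygous against heterozygous, the intervals of all 3 genes include 0.

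Actn3, an alpha-actinin of fast skeletal fibres, was near the limit of detection. Its raw counts were 0, 20 and 2 in homozygous, 0, 6 and 6 in heterozygous and 4 and 4 in wild-type hearts, and it did not reach the minimum count for testing, so 3 of 4 members entered the tests. A count of 0 allows up to 0.0904 CPM in homozygous 1 and 0.135 CPM in heterozygous 1 (3 counts of the library total). Summed over the libraries of a genotype, Actn3 came to 0.178 CPM in homozygous (exact 95% Poisson interval 0.111 to 0.269), 0.146 CPM in heterozygous (0.0753 to 0.255) and 0.144 CPM in wild-type hearts (0.0621 to 0.284), and a difference was not detectable at this depth. These intervals cover counting error only, and the 3 homozygous counts differed by more than that, since homozygous 2 alone had 20 of the 22. All 8 counts were even, and the intervals and the floor take each count as an independent fragment, which was not tested.

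Most other skeletal muscle markers were sparse too. Myh4 and Myod1, a fast myosin heavy chain and the myogenic factor MyoD, were at 0 in all 8 libraries, and the sum of the 12 markers was 32.9 to 44.4 CPM in homozygous, 29.1 to 38.9 CPM in heterozygous and 69.4 to 77.5 CPM in wild-type hearts. Most of it was Mybpc2, fast myosin-binding protein C, with 28.2 to 39.8 CPM in homozygous, 24.4 to 32.9 CPM in heterozygous and 61.3 to 65.3 CPM in wild-type hearts, and it fell in both deletion genotypes (adjusted p = 0.00379 and 0.00116), while Tnni2, fast troponin I, did not pass. Of 7 markers tested, 2 were lower in homozygous and 1 in heterozygous hearts, and none was higher, beside 12.4% and 12.8% of all genes that were lower. Wild type 1 alone, with 61.3 CPM of Mybpc2, was above every deletion heart. The Actn3 levels did not have that order: the highest level, 0.349 CPM, was in homozygous 2.

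Per kilobase of annotated exon, Actn2 was the dominant member in every heart. It reached 557, 424 and 472 CPM per kilobase in homozygous, 446, 407 and 432 in heterozygous and 576 and 712 in wild-type hearts. Actn4 stood at 21.5 to 24.9 CPM per kilobase in homozygous, 20.2 to 25.3 in heterozygous and 26.4 to 30.4 in wild-type hearts. Actn1 stood at 6.85 to 7.16 in homozygous, 7.12 to 7.50 in heterozygous and 9.92 to 12.8 in wild-type hearts. The order Actn2, Actn4, Actn1, Actn3 was the same in all 8 libraries, and the ranges of neighbouring members in that order did not meet. By coding length in place of exon length the levels of Actn2 were higher, with means of 686, 606 and 912 CPM per kilobase in homozygous, heterozygous and wild-type hearts.

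**Figure D4:**
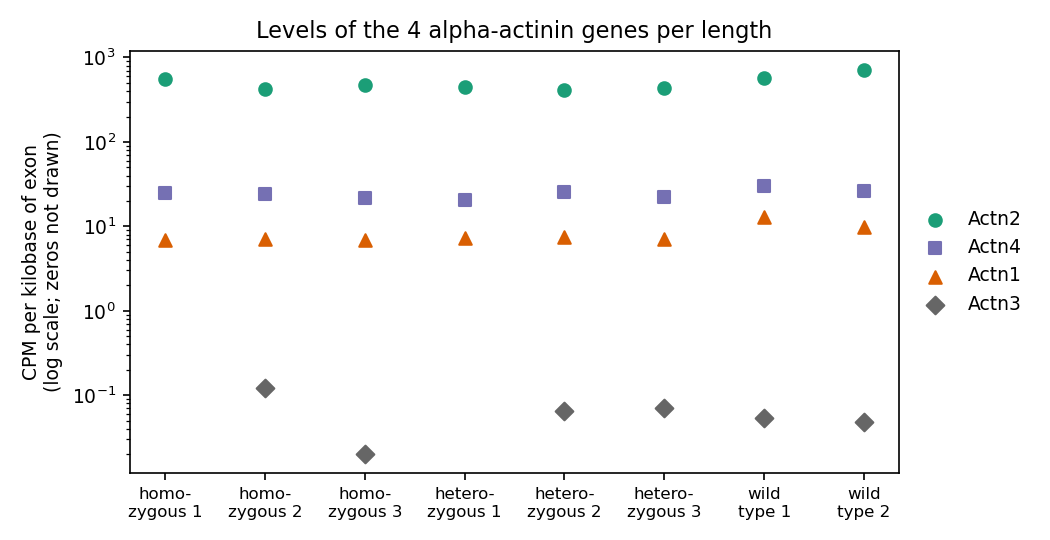
CPM per kilobase of exon (log scale) of the 4 members in each library, homozygous on the left and wild type on the right; libraries in which Actn3 is at 0 show no diamond. Actn2 lies between 407 and 712, Actn4 between 20.2 and 30.4, and Actn1 between 6.85 and 12.8.

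The makeup of the family overlapped between genotypes. The sum of the 4 members was 515 ± 67.9 CPM per kilobase in homozygous, 458 ± 16.9 in heterozygous and 684 ± 91.3 in wild-type hearts (SD, n = 3, 3 and 2), and it followed Actn2. Actn2 made up 94.6%, 93.1% and 94.3% of it in homozygous, 94.2%, 92.5% and 93.6% in heterozygous and 93.0% and 95.1% in wild-type hearts. The wild-type pair spanned the full range of the deletion hearts except for heterozygous 2. Actn2 stood at 80.0, 59.3 and 68.9 times Actn1 per kilobase in homozygous, 61.3, 54.3 and 60.6 times in heterozygous and 45.1 and 71.8 times in wild-type hearts, again with overlap. The ratio of Actn4 to Actn1, the non-muscle pair, was 3.57, 3.38 and 3.14 in homozygous, 2.78, 3.37 and 3.13 in heterozygous and 2.38 and 2.66 in wild-type hearts, so that every deletion heart was above both wild-type hearts. No test was made on these ratios, which are scores over chosen members. How often ratios of other genes part the genotypes in this way was not determined.

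The genes with the level pattern closest to each member were found by the root-mean-square difference of centred log2(CPM + 1) over the 8 libraries, among 13110 genes with a mean of at least 1 CPM. Closest to Actn2 were Tars2, a mitochondrial threonyl-tRNA synthetase (0.045 log2 units), Sqstm1, the autophagy receptor p62 (0.055), Por, cytochrome P450 reductase (0.059), Atp5b, the beta subunit of ATP synthase (0.062), and Mrpl38, a mitochondrial ribosomal protein (0.064), against a median of 0.35 over all these genes. Tars2, for example, had 50.5, 41.7 and 42.0 CPM in homozygous, 40.4, 38.5 and 39.5 CPM in heterozygous and 54.3 and 68.8 CPM in wild-type hearts. As with Actn2, homozygous 1 was the highest deletion heart and wild type 2 the highest of all. Closest to Actn1 were Plcd1, a phospholipase C (0.072), Zfp593 (0.073) and Anapc2, a subunit of the anaphase-promoting complex (0.075), and closest to Actn4 were the splicing factor gene Sf3a1 (0.056), Esyt1, an extended synaptotagmin (0.057), and Sap18 (0.059). Zfp593 averaged only 1.39 CPM, where the added 1 shrinks differences. Its fitted log2 fold changes, -1.14 in homozygous and -1.18 in heterozygous hearts, were larger than those of Actn1. No member was among the genes closest to another: 13.7% of genes were closer to Actn1 than Actn2 was, 3.81% closer to Actn1 than Actn4, and 16.9% closer to Actn2 than Actn4.

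Partners of alpha-actinin in the Z-disc moved in both directions while Actn2 was lower. Of 23 tested, 5 rose and 3 fell in homozygous and 7 rose and 3 fell in heterozygous hearts, with median log2 fold changes of 0.18 and 0.15 against -0.03 over all genes. Of all genes, 15.3% and 15.2% rose and 12.4% and 12.8% fell, so the falls were near that share. Nebl, the nebulin-like nebulette that binds alpha-actinin, rose 9.33-fold and 9.79-fold in homozygous and heterozygous hearts (edgeR adjusted p = 4.97e-05 and 4.98e-05), and its log2 fold changes of 3.22 and 3.29 became 2.45 and 2.49 after the gene property correction. Synpo2, the actin-bundling myopodin, rose 2.80-fold and 3.14-fold, Capza2, a capping protein of actin barbed ends, 1.85-fold and 2.001-fold, and titin (Ttn) 1.78-fold and 1.70-fold.

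The PDZ-LIM partners moved in both directions. Pdlim3, the actinin-associated LIM protein, had 9.92, 18.2 and 13.0 CPM in homozygous, 18.6, 17.4 and 21.8 CPM in heterozygous and 35.01 and 48.7 CPM in wild-type hearts, and decreased by 1.61 in homozygous and by 1.12 in heterozygous hearts on the log2 scale (adjusted p = 0.00136 and 0.00699). Pdlim7, which carries the same pair of domain types, fell by 0.86 and 0.75 (adjusted p = 0.0104 and 0.0193). Pdlim5, named after its values were seen, rose by 0.48 and 0.58 on the log2 scale (adjusted p = 0.0482 and 0.0241), and Ldb3 (0.18 and 0.10) and Pdlim1 (-0.18 and -0.20) did not pass. After the correction 4 rose and 1 fell in homozygous and 4 rose and none fell in heterozygous hearts of 22 tested, with Ttn at -0.04 and -0.40, and Pdlim7 and, in heterozygous hearts, Pdlim3 no longer passed (adjusted p = 0.240, 0.483 and 0.0519). Without wild type 2 fewer Z-disc partners passed in each direction, and the Pdlim7 call was lost in both genotypes and the Pdlim3 call in heterozygous hearts.

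Among 17 adhesion partners of the non-muscle alpha-actinins, 4 rose and 6 fell in each deletion genotype, with medians of -0.14 in homozygous and 0.04 in heterozygous hearts. Of all genes, 15.3% rose and 12.4% fell in homozygous and 15.2% rose and 12.8% fell in heterozygous hearts. After the correction these shares were 8.80% and 5.99% in homozygous and 8.05% and 5.76% in heterozygous hearts, and without wild type 2 they were 10.1% and 3.58% and 10.5% and 4.62%. Itgb1, the beta-1 integrin whose tail alpha-actinin binds, rose 1.997-fold and 2.040-fold, the focal adhesion protein Lpp 1.98-fold and 2.15-fold, and Pik3r1, the regulatory subunit of PI3-kinase, 2.70-fold and 3.12-fold. The LIM proteins Csrp1 and Trip6 fell by 0.93 and 0.76 in homozygous and by 0.94 and 0.96 in heterozygous hearts on the log2 scale. Icam2, an endothelial adhesion molecule, had 31.9, 25.2 and 22.8 CPM in homozygous, 20.2, 25.3 and 22.5 CPM in heterozygous and 43.6 and 68.1 CPM in wild-type hearts, and was at 0.477-fold and 0.406-fold (adjusted p = 0.00447 and 0.00167). After the correction 3 rose and 1 fell in homozygous and 3 rose and 4 fell in heterozygous hearts, with Lpp at 0.05 and 0.12, and Icam2 and Trip6 no longer passed in homozygous hearts (adjusted p = 0.0518 and 0.155). Without wild type 2, 3 rose and 5 fell in homozygous and 3 rose and 4 fell in heterozygous hearts. Csrp1 and Icam2 are abundant in vascular cells, whose marker sums are given with Actn1, and their part was not tested.

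The relatives of alpha-actinin in the spectrin superfamily and other actin cross-linkers changed in both directions, with more rises than falls. Of 17 tested, 7 rose and 1 fell in homozygous and 6 rose and 1 fell in heterozygous hearts, beside 15.3% and 15.2% of all genes that rose and 12.4% and 12.8% that fell. Dystrophin (Dmd), which links actin to the sarcolemma, rose 3.72-fold and 3.48-fold, and Sptb, beta-spectrin, 2.78-fold and 2.55-fold. Utrophin (Utrn), dystonin (Dst), Sptbn1 and Macf1 rose 1.56-fold to 1.90-fold. After the correction 2 rose and 1 fell of 16 in each genotype, the medians turned from 0.13 and 0.20 to -0.11 and -0.02, Macf1 was at -0.06 and -0.13, and Utrn and Sptbn1 no longer passed in either genotype (adjusted p from 0.102 to 0.173). Dmd (log2 fold changes 1.01 and 0.87, against 1.90 and 1.80 before) and Sptb were the 2 that still rose, and Dst had no value in that fit. Without wild type 2, 6 rose and none fell in each genotype, in a fit where 73.9% and 69.5% of all calls were rises.

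**Figure D5:**
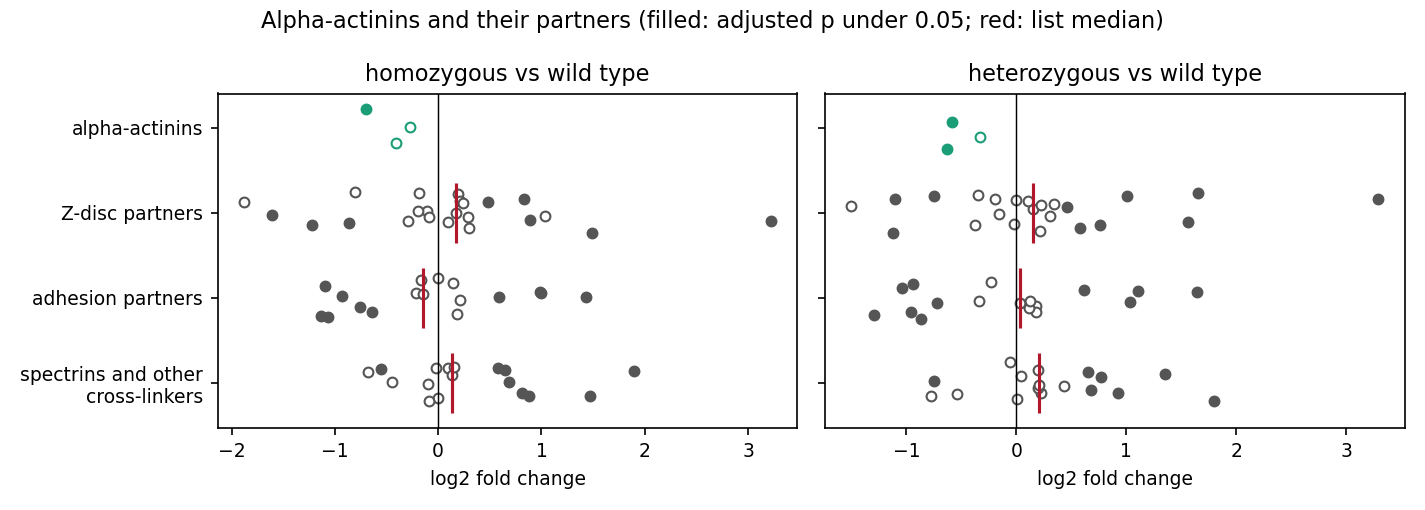
Log2 fold change against wild type (x axis) of the 3 tested alpha-actinins and of the members of each partner list, one point per gene; filled points have an adjusted p under 0.05 and red lines are list medians. Homozygous hearts are on the left and heterozygous hearts on the right, and the 3 alpha-actinins lie below 0 in both.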

How the data were processed

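Bulk RNA was sequenced from 8 hearts. The authors deposited a table of raw, unscaled counts by gene symbol. The submitters' processing notes name mm10 as build and, as tools, featureCounts, Subread, DESeq2, HISAT2 and Trimmomatic 0.36, in no order. Counts were analysed in R 4.3.3 with edgeR 4.0.16: filterByExpr on genotype kept 15075 genes, TMM scaled them, and all 8 libraries entered 1 robust quasi-likelihood fit, because wild type has 2 libraries. Tests were two-sided with p adjusted by Benjamini-Hochberg across the tested genes and called under 0.05. The SE is the log2 fold change divided by the root of F. Lengths, positions and GC content came from GENCODE vM21 (GRCm38, the build named mm10), which held 96.9% of the symbols, and promoters from RefSeq. The gene property correction removed, per library, splines (4 df each) of log2 transcript length, log2 3' UTR length and GC content as an offset, for 13679 genes. Alternatives used DESeq2 1.42.0, limma 3.58.1 (voom), other scalings and filters, and each library left out. The fit was tested on simulated counts. Named partners are the 4 with the smallest p in homozygous and up to 2 more in heterozygous hearts, named markers the 2 most abundant, and the pattern genes the nearest 3, or 5 for Actn2. Promoter motifs, and the alternatives for marker lists, were chosen after the files were seen. The members and lists were chosen with earlier results of these data known.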

Additional observations from a re-analysis of the deposited data

How the results depend on the processing

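Against wild type, Actn2 was lower and Actn1 passed in each of the 17 alternative fits. Leaving out each library gave Actn2 log2 fold changes of -0.55 to -0.22 in homozygous hearts, -0.73 to -0.40 in heterozygous hearts and -0.64 to -0.31 in both deletion genotypes together. The homozygous difference passed with DESeq2 (-0.41, adjusted p = 0.0342). The heterozygous value was -0.59 with homozygous hearts out of the fit, -0.59 with the replicate block and -0.37 after the gene property correction, none of which passed. Both genotypes together were at -0.50 with the replicate block (adjusted p = 0.0559), -0.27 after the correction (adjusted p = 0.165) and -0.31 without wild type 2 (adjusted p = 0.199), none of which passed. Homozygous against heterozygous, Actn4 ranged from -0.02 to 0.14 with libraries left out and changed sign without heterozygous 1 (-0.016). Titin and Macf1 changed sign after the correction, to -0.039 and -0.061 in homozygous and -0.40 and -0.13 in heterozygous hearts.

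The number of genes past the threshold in homozygous hearts was 4180, 2023 after the correction and 2135 to 5717 with libraries left out (lowest without wild type 2, and 2564 without homozygous 3). In heterozygous hearts it was 4219, 2668 with only the groups compared, 1889 after the correction and 2359 (without wild type 2) to 5634 with libraries left out. For both together it was 5086, 2681 after the correction and 2610 (without wild type 2) to 6180 with libraries left out. Homozygous against heterozygous it was 0, 2 without a filter, 3 with DESeq2 and 0 to 1 with libraries left out (1 without homozygous 2). Without wild type 2 73.9% of homozygous and 69.5% of heterozygous calls were higher, against 55.2% and 54.4% with it. With the replicate block 3328 and 3376 genes passed. Whether the numbers pair the samples stayed undecided, since groups of 3 are too small for this check. Deviations of same-numbered homozygous and heterozygous hearts correlated at 0.18, 0.14 and -0.02, and 2 of 3 homozygous hearts correlated best with their own number. With coding length Actn2 made up 91.1%, 90.3% and 91.3% of the family in homozygous, heterozygous and wild-type hearts, and stood at 686, 606 and 912 CPM per kilobase; total-count scaling moved these by less than 1 SD. Among Z-disc partners, only the groups compared gave 4 rises and 2 falls in heterozygous hearts. The cause of these changes was not tested. Depth limits Actn3, with counts of 0 to 20.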

Other observations

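Low counts in this table were even more often than odd. Of the genes with 5 to 49 counts in a library, 59.9% to 64.1% had an even count in 7 libraries and 73.0% in wild type 2, against 49.04% to 51.3% of genes with at least 500 counts. The counts of Actn3 were even in all 8 libraries, 0 included. The cause was not tested.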
